A study of Mus musculus with 21 samples.

Results

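Paneth cells from germ-free mice were compared with Paneth cells from antibiotic-treated mice while both groups drank zinc water. The comparison uses 8 of the 21 libraries of the series, 4 germ-free and 4 antibiotic-treated, chosen by their labels alone. The study sorted Paneth cells from the mouse small intestine by flow cytometry and sequenced their RNA. Mice were specific pathogen-free (SPF), germ-free, or SPF and given broad-spectrum antibiotics, and drank either plain Milli-Q water or zinc sulfate water (200 mM as the labels state it) for 7 weeks. The antibiotic groups received the antibiotics during the last 3 of those weeks, so they carried an SPF flora before, whereas germ-free mice never carried one. The study's methods give C57BL/6J as the strain of all mice. Age, sex, facility, litter, collection time and sequencing date are not in the labels, so anything of that kind that differed between germ-free and antibiotic-treated mice cannot be told apart from microbial status. The study describes its sequenced samples as cells from individual mice, and the labels do not say so for each library. P-values measure spread between libraries, for shares of counts between these 8 and for single genes as fitted over all 21.

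Paneth cells sit at the base of the small intestinal crypt and pack antimicrobial proteins into secretory granules, among them the alpha-defensins encoded by the Defa genes, lysozyme and the lectin intelectin. They also supply Wnt and Notch signals to the neighbouring stem cells, and they are among the most zinc-rich cells of the gut because zinc is loaded into their granules. Both models remove bacteria from the gut, germ-free housing from birth and antibiotics later in life, so the comparison asks how the route to low bacterial exposure shows in the cells.

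Alpha-defensin genes took a larger share of the counts in germ-free Paneth cells, which bears on how every other gene is read. Alpha-defensin genes took 28.7, 26.4, 29.9 and 25.3% of all counts in antibiotics zinc replicates 1 to 4. In germ-free zinc replicates 1 to 4 the share was 41.6, 41.6, 39.3 and 42.0%. No germ-free library came near the antibiotics range. The means were 27.6% ± 2.09 and 41.2% ± 1.22 (SD, n = 4 each, exact two-sided permutation test p = 0.0286, the smallest that 4 against 4 allows, adjusted p = 0.0476 over 15 shares). Exact 95% binomial intervals around single libraries were narrower than 0.1 percentage points and cover counting error only. The 20 most abundant genes of each library together held 50.9% ± 3.64 of counts with antibiotics and 69.1% ± 4.88 in germ-free cells (adjusted p = 0.0476, exact permutation test). Other Paneth cell products, among them lysozyme and intelectin, took 16.4% ± 3.31 and 19.9% ± 2.16, with overlapping groups (exact permutation test p = 0.143, adjusted p = 0.195). For comparison, SPF mice on zinc water had 35.1% ± 1.30 (n = 3) on the Defa genes.

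**Figure D1:**
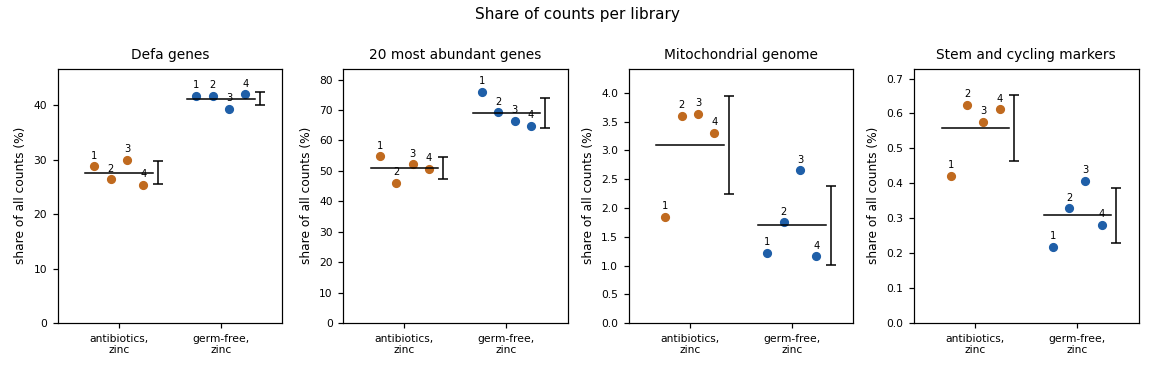
Share of all counts (y axis, percent, starting at 0) taken by 4 gene groups in each library of the 2 zinc groups. Numbered points are replicates, the horizontal line is the mean and the bar beside it 1 SD. Defa genes lie between 25.3 and 29.9% with antibiotics and between 39.3 and 42.0% in germ-free cells, while stem and cycling markers lie lower in each germ-free library than in each antibiotics library.

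When a few genes take a larger share, all others must take a smaller one, so each gene was tested under both of 2 scalings. The first used TMM factors, which centre the bulk of genes, and the other used library totals only. A gene was called at an adjusted p below 0.05 (edgeR, quasi-likelihood). Under TMM factors the calls came to 1720 of 13070 tested genes (13.2%), of which 924 (7.07%) rose and 796 (6.09%) fell in germ-free cells. Under library totals they came to 8649 (66.2%), of which 118 (0.903%) rose and 8531 (65.3%) fell. The typical gene then lay at -0.74 on the log2 scale, where TMM factors put it at -0.000484. Groups did not overlap for 7.47% of genes upward and 7.85% downward under TMM factors, and for 0.505% and 48.8% under totals. Of the 1720 genes, 911 passed in the same direction under both, 115 higher and 796 lower. These fits took the spread from all 21 libraries, and a fit of the 8 libraries alone gave 865 calls under TMM factors. In bulk RNA, fewer cells of a type and less RNA per cell cannot be told apart, and neither scaling says how much RNA a cell held. Log2 fold changes below are germ-free over antibiotics with TMM factors, ± standard error, and single values are CPM, the usual library-size-scaled counts of edgeR, here with the TMM-scaled library size.

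**Figure D2:**
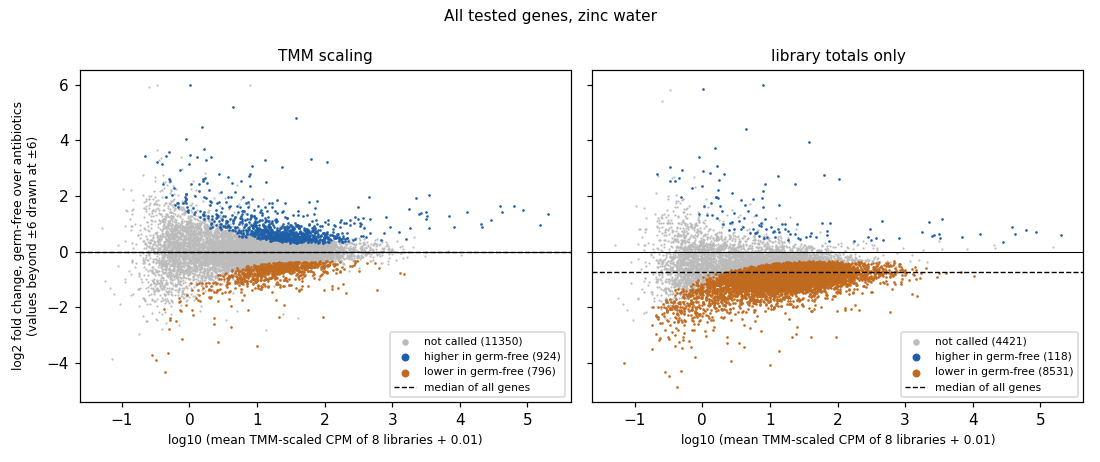
Log2 fold change, germ-free over antibiotics on zinc water (y axis), against the log10 mean CPM of the 8 libraries (x axis), 1 point per tested gene. With TMM factors 924 genes are called higher and 796 lower, and with library totals 118 and 8531, around a median (dashed) of -0.74.

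Library depth was 12734231 to 14895603 counts with antibiotics and 9888174 to 12936001 counts in germ-free cells, TMM factors were 1.084 to 1.33 and 0.522 to 0.834, and 15870 to 16558 and 13747 to 16180 genes had at least 1 count. The 18S ribosomal RNA feature Rn18s-rs5 stood at 22064, 14753, 32283 and 51635 CPM with antibiotics and 192080, 67283, 79348 and 40462 CPM in germ-free cells. Germ-free replicate 1 was highest in it, had the lowest depth and stood apart on the first principal component. Germ-free replicate 4 stood apart on the second and was the highest germ-free library for several interferon and absorptive transcripts, and antibiotics replicate 4 was the highest library for the MHC class II gene Cd74. Paneth markers were abundant in all libraries (32.0 to 40.0% and 45.8 to 52.1% of counts).

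All 20 tested alpha-defensin genes had positive log2 fold changes, and 18 rose. None fell, and their median was 1.19, while the median over all tested genes was -0.000484. With library totals 11 of the 20 still rose, with a median of 0.43. Defa38 was at 22368, 16271, 20157 and 15672 CPM with antibiotics and at 72585, 56163, 48601 and 57584 CPM in germ-free cells. The lowest germ-free library was above the highest antibiotics library by a wide margin, and the log2 fold change was 1.66 ± 0.19 (adjusted p = 2.59e-05). Defa24, encoded on chromosome 8 (chr8:22224506-22225490, GRCm39), rose by 1.37 ± 0.22 (adjusted p = 0.000288). Defa30, Defa26 and Defa40 rose by 1.51, 1.44 and 1.52 on the log2 scale. Alpha-defensin genes are near-identical copies, so the split of reads between single members is uncertain. Of 28 listed members 8 had at most 12 counts in any library and were not tested, and reads that the counting left out would be missing from the sum as well. Among these 8 were Defa2, Defa23 and Defa20. The paper's transcript quantification of a typical experiment, by another method, placed them among its most abundant Defa genes. The share of counts is thus not a share of RNA.

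Among 20 other Paneth cell products, 9 rose and none fell, with a median log2 fold change of 0.69. Intelectin-1 (Itln1), a lectin that binds microbial sugars, was at 31899, 19928, 20882 and 19403 CPM with antibiotics and at 89371, 62430, 47110 and 49534 CPM in germ-free cells. Its groups did not overlap (1.43 ± 0.22, adjusted p = 0.000231), and it also rose with library totals (0.64, adjusted p = 0.00018). Colipase (Clps), the cofactor of pancreatic lipase, rose by 1.40 ± 0.20 (adjusted p = 0.000152). Mmp7, the protease that activates pro-defensins, rose by 0.86 ± 0.20 (adjusted p = 0.00569), and the stem cell niche signal Wnt3 rose by 0.94 ± 0.14 (adjusted p = 0.00019). Lysozyme (Lyz1) had overlapping groups, 73424 to 147740 CPM against 142882 to 295829 CPM, and its call (0.96 ± 0.25, adjusted p = 0.0128) was lost without antibiotics replicate 2 or 3. With library totals Mmp7, Wnt3 and Lyz1 had log2 fold changes of 0.08, 0.16 and 0.17 and none passed, whereas Clps did (0.61, adjusted p = 0.00061).

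Fatty acid oxidation and ketone body genes were higher in germ-free cells. Of 22 tested members, 14 rose and none fell, with a median log2 fold change of 0.72. With library totals 7 rose and 5 fell. Pdk4 (chr6:5483097-5496339), a kinase that shuts off pyruvate dehydrogenase and so spares glucose, had 1, 8, 1 and 5 counts with antibiotics and 51, 139, 50 and 33 counts in germ-free cells. It was thus nearly absent in each antibiotics library, and its log2 fold change was 5.20 ± 0.76 (adjusted p = 0.000176).

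An enzyme of the mitochondrial pathway itself was also higher. Long-chain acyl-CoA dehydrogenase (Acadl) was at 22.0, 21.6, 17.9 and 24.7 CPM with antibiotics and at 75.3, 73.7, 46.1 and 43.5 CPM in germ-free cells. Its groups did not overlap (1.46 ± 0.19, adjusted p = 8.32e-05). Further members, named after their values were seen, are Cpt1a, which carries fatty acids into mitochondria, Angptl4, an inhibitor of lipoprotein lipase, and Creb3l3, a transcription factor of fasting metabolism. Cpt1a rose by 1.11 ± 0.24 (adjusted p = 0.00418), Angptl4 by 2.46 ± 0.52 (adjusted p = 0.00315) and Creb3l3 by 2.78 ± 0.52 (adjusted p = 0.00116). The abundant members Ucp2 and Hadh did not pass (0.22 and 0.26, adjusted p = 0.263 and 0.137). Leaving out any 1 of the 8 libraries kept 12 to 15 of the 22 called higher.

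On Milli-Q water, where 3 germ-free and 4 antibiotics libraries were available, 8 of the 22 rose and none fell, against 1636 of all 13070 genes higher (12.5%) and 1268 lower (9.7%). Pdk4 was called on both waters (2.78 on Milli-Q water, adjusted p = 0.0047) with no call for the difference (2.42, adjusted p = 0.25). Of the 22, 1 was called for the difference between waters, with a larger value on zinc water. Such calls rested on single libraries, as described below.

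**Figure D3:**
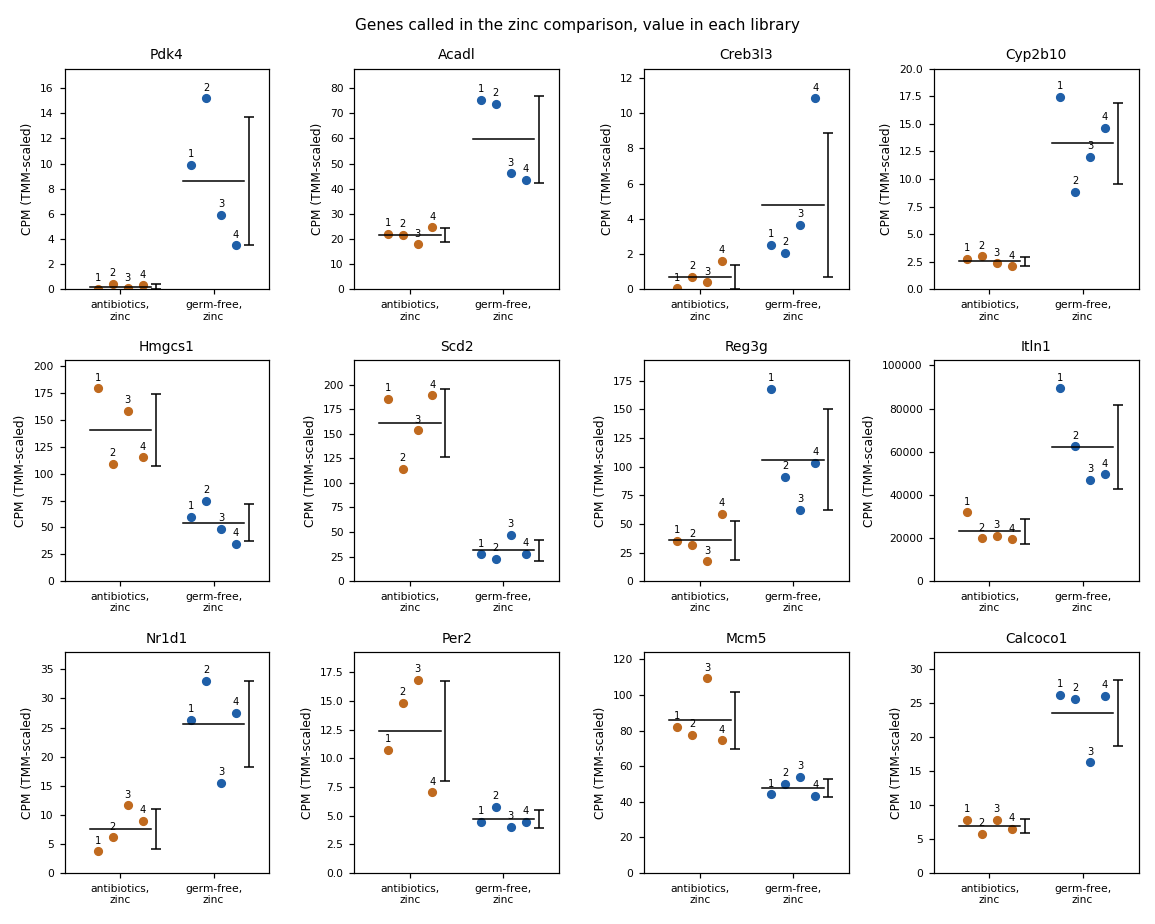
CPM of 12 genes (y axis, linear, from 0) in each of the 8 zinc libraries, with replicate numbers, group means (lines) and 1 SD (bars). Pdk4 is at 0.0619 to 0.412 CPM with antibiotics and 3.51 to 15.2 CPM in germ-free cells, and in none of the 12 genes do the groups overlap.

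Cholesterol synthesis and uptake genes moved the other way. Of 24 tested members, 16 fell and none rose, with a median log2 fold change of -0.65. With library totals all 24 fell, beside 65.3% of all genes. HMG-CoA synthase (Hmgcs1), a cytosolic enzyme early in the pathway, was at 180, 109, 158 and 116 CPM with antibiotics and at 60.2, 74.7, 48.6 and 34.8 CPM in germ-free cells. Each germ-free library lay below each antibiotics library, and Hmgcs1 fell by 1.37 ± 0.24 on the log2 scale (adjusted p = 0.000708). Idi1, an isomerase of the isoprenoid steps, was at 11.03, 5.25, 10.04 and 12.1 CPM with antibiotics and at 3.68, 3.61, 4.25 and 1.49 CPM in germ-free cells. Its groups did not overlap either (-1.57 ± 0.33, adjusted p = 0.00269). Srebf2, the transcription factor gene of the pathway, did not pass (-0.20 ± 0.13, adjusted p = 0.329). On Milli-Q water 8 of the 24 fell and none rose. Scd2, a desaturase that makes monounsaturated fatty acids and no member of the list, stood at 186, 114, 153 and 189 CPM with antibiotics and at 27.5, 23.1, 47.3 and 27.6 CPM in germ-free cells. It had the largest fall among abundant protein-coding genes whose groups did not overlap (-2.35 ± 0.36, adjusted p = 0.000235).

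SREBP proteins activate these genes through short sterol response elements in their promoters. RefSeq promoter sequences (GRCm38.p6, 250 bases before to 50 after a start) were at hand for 16 of the 24 list genes, 19 promoters in all. The letters TCACNCCAC, searched on both strands, occurred in 1 of the 19 and in 1.24% of 32851 promoters. The match lay 137 bases before the start of Hmgcs1 (chr13:119690204-119690232, plus strand), shown with the match in capitals.
Hmgcs1: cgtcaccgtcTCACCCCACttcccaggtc
A match is a description of letters and not of a used site. A second search used letters of the direct repeat 1 type and the fatty acid oxidation and ketone body list. Those letters occurred in 0 of 21 promoters, from 19 of the 24 genes on that list, and in 0.381% of the 32851 promoters.

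Of 18 markers of stem and cycling cells, 8 fell and none rose, with a median log2 fold change of -0.325, and the summed share of counts, which falls for the typical gene too, was 0.421 to 0.625% with antibiotics and 0.219 to 0.407% in germ-free cells (adjusted p = 0.0476, exact permutation test). Mcm5, a subunit of the replicative helicase, was at 81.9, 77.5, 109 and 74.6 CPM with antibiotics and at 44.2, 50.1, 54.0 and 43.5 CPM in germ-free cells. Its groups did not overlap (-0.84 ± 0.14, adjusted p = 0.000412). Pcna, the sliding clamp of DNA polymerase, fell by 0.85 ± 0.15 (adjusted p = 0.000696), and the chromatin remodeller Hells fell by 1.25 ± 0.22 (adjusted p = 0.000672). Rrm2, the ribonucleotide reductase subunit named after its values were seen, fell by 1.20 ± 0.17 (adjusted p = 0.000111). The part of contaminating crypt cells in these falls was not tested. Leaving out any 1 library kept 7 or 8 of the 18, and leaving out germ-free replicates 1 and 4 together kept 3.

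**Figure D4:**
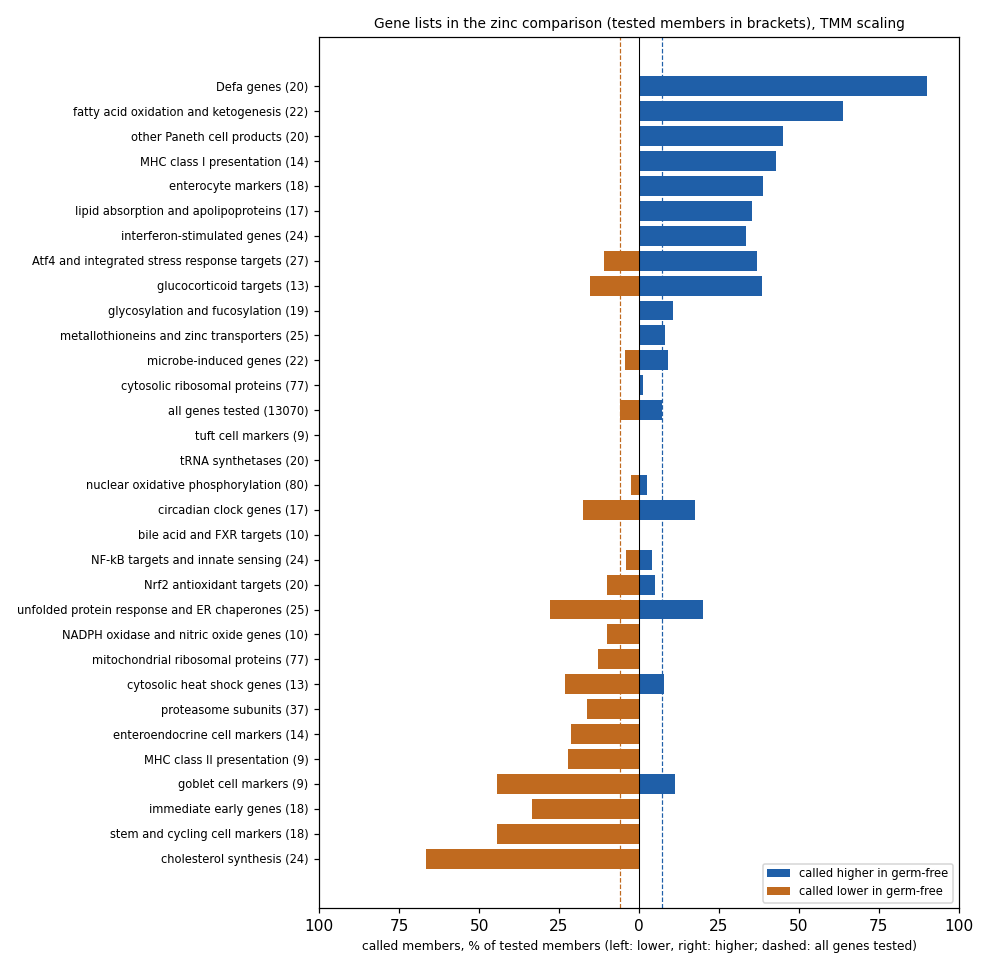
Called members of each gene list with at least 9 tested members, as percent of those tested (x axis, lower to the left, higher to the right), with TMM factors; dashed lines mark all 13070 genes, 7.07% higher and 6.09% lower. Defa genes (18 of 20 higher) and cholesterol synthesis (16 of 24 lower) mark the ends.

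Of 22 tested genes known to be induced by microbes, 2 rose and 1 fell, shares near those of all genes. Reg3g (chr6:78443246-78445859), an antibacterial lectin, was at 35.0, 31.7, 17.5 and 58.6 CPM with antibiotics and at 168, 91.1, 62.5 and 103 CPM in germ-free cells. The lowest germ-free library was just above the highest antibiotics library (1.57 ± 0.33, adjusted p = 0.00292; 0.76 with library totals, adjusted p = 0.024). SPF zinc mice averaged 267 ± 168 CPM (n = 3). Its neighbour Reg3b overlapped between groups, 2.98 to 10.9 CPM against 7.43 to 14.7 CPM, and did not pass (0.84 ± 0.42, adjusted p = 0.193). Zbp1, a sensor of nucleic acids, rose by 1.46 ± 0.30 (adjusted p = 0.00263). Noxa1, an activator of the NADPH oxidase, fell by 0.67 ± 0.20 (adjusted p = 0.0333), a call lost without antibiotics replicate 1 or 4 or germ-free replicate 1, 2 or 3. Pigr, the transporter of secretory antibodies, and Nos2, the inducible nitric oxide synthase, did not pass (-0.24 and -0.69, adjusted p = 0.219 and 0.544).

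Both groups drank zinc water, and zinc handling genes were compared between them. Of 25 metallothioneins and zinc transporters, 2 rose and none fell, beside 7.07% of all genes higher and 6.09% lower. None of the 25 was called without antibiotics replicate 4. With library totals 14 of the 25 fell and none rose, while 65.3% of all genes fell. The zinc buffers Mt1 and Mt2 spread over 380 to 1000 CPM and 370 to 1040 CPM with antibiotics and 442 to 1100 CPM and 435 to 966 CPM in germ-free cells, and neither passed (0.13 ± 0.28 and -0.13 ± 0.34, adjusted p = 0.814 and 0.849). Slc30a2, the transporter that loads zinc into Paneth granules, was at 107, 96.2, 85.6 and 55.8 CPM with antibiotics and at 136, 117, 110 and 131 CPM in germ-free cells. Its ranges came close without overlapping (0.51 ± 0.15, adjusted p = 0.0226), the call was lost without antibiotics replicate 3 or 4 or germ-free replicate 1, and with library totals its log2 fold change was -0.24. Slc39a13, a zinc importer of the secretory pathway, rose by 0.65 ± 0.20 (adjusted p = 0.0296; -0.09 with library totals), a call lost without antibiotics replicate 1 or 4 or germ-free replicate 1 or 4. Slc39a3, another zinc importer, did not pass (0.39 ± 0.14, adjusted p = 0.0596).

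Of 25 genes of the unfolded protein response and endoplasmic reticulum chaperones, 5 rose, 7 fell and 13 were not called. Herpud1, part of the machinery that exports misfolded proteins for degradation, was at 227, 187, 199 and 161 CPM with antibiotics and at 519, 475, 363 and 395 CPM in germ-free cells (1.18 ± 0.17, adjusted p = 0.000189). The other 4 that rose were Ern1, Edem1, Sel1l and Xbp1, which sense stress, act in degradation or transmit the response. The 7 that fell were folding chaperones and their cofactors. Sdf2l1 was at 112, 73.7, 98.7 and 73.3 CPM with antibiotics and at 56.5, 53.9, 49.6 and 42.8 CPM in germ-free cells (-0.82 ± 0.15, adjusted p = 0.00125). Hsp90b1 fell by 0.70 ± 0.14 (adjusted p = 0.00251). The abundant chaperones Hspa5 and Calr fell by 0.57 and 0.42 (adjusted p = 0.0442 and 0.0391), calls that held in 2 and 3 of 8 fits without 1 library. On Milli-Q water 5 rose and 1 fell, and without 1 library the zinc counts ran from 2 to 6 higher and 4 to 7 lower, with 2 higher without antibiotics replicate 4 or germ-free replicate 1.

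Of 27 tested amino acid stress targets of the transcription factor Atf4, 10 rose and 3 fell, with a median log2 fold change of 0.20. Without germ-free replicates 1 and 4 the list had 3 higher and 2 lower and a median of -0.03 (-0.0298). Nupr1, a small stress-induced chromatin protein, was at 225, 120, 179 and 149 CPM with antibiotics and at 393, 364, 253 and 567 CPM in germ-free cells. Its groups did not overlap (1.23 ± 0.20, adjusted p = 0.000412). Chac1, which degrades glutathione, rose by 2.72 ± 0.58 (adjusted p = 0.00312), Sesn2, a leucine sensor, by 0.84 ± 0.16 (adjusted p = 0.00101) and the amino acid transporter Slc7a5 by 0.72 ± 0.14 (adjusted p = 0.00188). Atf4 itself did not pass (0.14 ± 0.14, adjusted p = 0.561). The 3 that fell were Atf3, Gdf15 and Psat1, and none of the list fell without antibiotics replicate 3. With library totals 3 rose and 14 fell. For the difference between waters 1 of the 27 was called, with a smaller value on zinc water.

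Clock genes moved in both directions. Of 17 tested, 3 rose and 3 fell. Nr1d1, a repressor of the clock loop, was at 3.72, 6.12, 11.7 and 8.95 CPM with antibiotics and at 26.3, 33.01, 15.5 and 27.5 CPM in germ-free cells (1.76 ± 0.32, adjusted p = 0.0009). Its relative Nr1d2 rose by 1.19 ± 0.28 (adjusted p = 0.00705). Per2, which peaks at another phase, was at 10.7, 14.8, 16.8 and 7.05 CPM with antibiotics and at 4.45, 5.79, 4.01 and 4.46 CPM in germ-free cells (-1.39 ± 0.28, adjusted p = 0.00188). Bhlhe40, a repressor of the same loop, did not pass (0.31 ± 0.17, adjusted p = 0.243). On Milli-Q water Nr1d1 (0.97, adjusted p = 0.035) and Per2 (-1.38, adjusted p = 0.002) were called in the same directions. The part of collection time was not tested. Nr1d1 overlaps Thra on the opposite strand, which the counts may share.

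In the gene groups described next many calls depended on single libraries. Some genes, among them Anpep, B2m, Fos and Hsp90aa1, stayed called in each fit without 1 library. Of 24 interferon-stimulated genes, 8 rose and none fell (7 and 2 on Milli-Q water). Oasl2, an antiviral protein, was at 1.98, 3.86, 0.606 and 1.502 CPM with antibiotics and at 0.775, 5.79, 3.19 and 45.7 CPM in germ-free cells. Its high value was that of germ-free replicate 4 alone (2.80 ± 0.76, adjusted p = 0.0172), and the call was lost without that library (adjusted p = 0.444) or without antibiotics replicate 3 or 4. Ifi27l2b was at 25.2 to 40.4 CPM with antibiotics and at 38.2, 35.5, 40.6 and 203 CPM in germ-free cells (1.34 ± 0.43, adjusted p = 0.0402), and Gbp3 had 6, 0, 0 and 0 counts and 8, 3, 2 and 42 counts (adjusted p = 0.00994). Without germ-free replicate 4, 1 of the list rose. The list's counts ran from 1 to 12 without 1 library, falling also to 2 without antibiotics replicate 3 and to 3 without antibiotics replicate 4. Zbp1, described above, held in all 8 such fits, and Irf1, the most abundant factor of the list, did not pass (0.15, adjusted p = 0.496).

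Absorptive transcripts rose in only some germ-free libraries. Of 18 enterocyte markers 7 rose and none fell (5 and 1 on Milli-Q water). On zinc water 2 were left without germ-free replicate 4 or antibiotics replicate 3, and 3 without antibiotics replicate 1 or 2. Fabp1, a fatty acid binding protein, was at 0.124, 2.21, 2.29 and 5.29 CPM with antibiotics and at 0.775, 1.53, 26.1 and 66.8 CPM in germ-free cells. Only germ-free replicates 3 and 4 were high, and the call (3.30 ± 0.90, adjusted p = 0.0176) was lost without replicate 4 or without antibiotics replicate 3. The summed share of enterocyte markers overlapped, 0.0943 to 0.139% with antibiotics and 0.0599 to 0.231% in germ-free cells (exact permutation test p = 1). By contrast the peptidase Anpep was at 113, 124, 115 and 93.2 CPM and at 236, 219, 184 and 288 CPM, with no overlap (1.06 ± 0.14, adjusted p = 8.32e-05), and the glucose transporter Slc5a1 rose by 0.79 ± 0.14 (adjusted p = 0.000951). Villin (Vil1) did not pass (0.31, adjusted p = 0.0751).

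MHC class II genes, which present peptides to T helper cells, were high in 2 antibiotics libraries. Of 9 tested, 2 fell and none rose (4 and 1 on Milli-Q water). On zinc water none fell without antibiotics replicate 4, and 7 fell without antibiotics replicate 3. Cd74, the invariant chain, was at 66.2, 15.2, 2.56 and 189 CPM with antibiotics and at 6.39, 19.2, 10.9 and 14.7 CPM in germ-free cells. Antibiotics replicates 1 and 4 were high, replicate 2 lay within the germ-free range and replicate 3 below it, so the groups overlapped and the test was not passed (-2.38 ± 0.87, adjusted p = 0.0688). H2-Aa and H2-DMb1 were called (-3.38 and -3.25, adjusted p = 0.0434 and 0.0204), calls that held in 2 and 7 of 8 fits without 1 library and both failed without antibiotics replicate 4, and H2-Eb1 was not (-2.83, adjusted p = 0.0508). Class I genes had 6 of 14 higher and none lower (1 and 1 on Milli-Q water), and with library totals none higher and 5 lower. B2m, the shared light chain, was at 158, 163, 159 and 191 CPM with antibiotics and at 226, 223, 212 and 250 CPM in germ-free cells (0.44 ± 0.10, adjusted p = 0.00705; -0.30 with library totals). H2-T23, H2-Q2 and H2-K1 rose by 0.78, 0.62 and 0.47 (called in 7, 5 and 3 of 8 fits without 1 library, and below 0 with library totals), and without antibiotics replicate 3 the list had 1 call.

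Immediate early genes respond within minutes to growth signals or to handling of cells. Of 18 tested, 6 were lower in germ-free cells and none higher (8 and none on Milli-Q water). Fos was at 220, 200, 375 and 117 CPM with antibiotics and at 106, 99.9, 68.2 and 92.8 CPM in germ-free cells (-1.31 ± 0.27, adjusted p = 0.00269). Antibiotics replicate 3 was the highest library, and without it 1 of the 18 fell. Egr1 and Jun fell by 1.33 ± 0.32 and 1.17 ± 0.29 (adjusted p = 0.00787 and 0.00934), calls lost without that library. Of 13 heat shock genes 3 fell and 1, the co-chaperone Bag3, rose, with 2 falling without antibiotics replicate 3 or germ-free replicate 1. Hsp90aa1 was at 133, 185, 297 and 112 CPM with antibiotics and at 77.3, 95.9, 80.1 and 53.6 CPM in germ-free cells (-1.24 ± 0.26, adjusted p = 0.00299). The mitochondrial chaperonins Hspe1 and Hspd1 fell by 0.71 and 0.51, and Hsp90ab1 did not pass (-0.30, adjusted p = 0.175). The part of tissue handling was not tested.

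**Figure D5:**
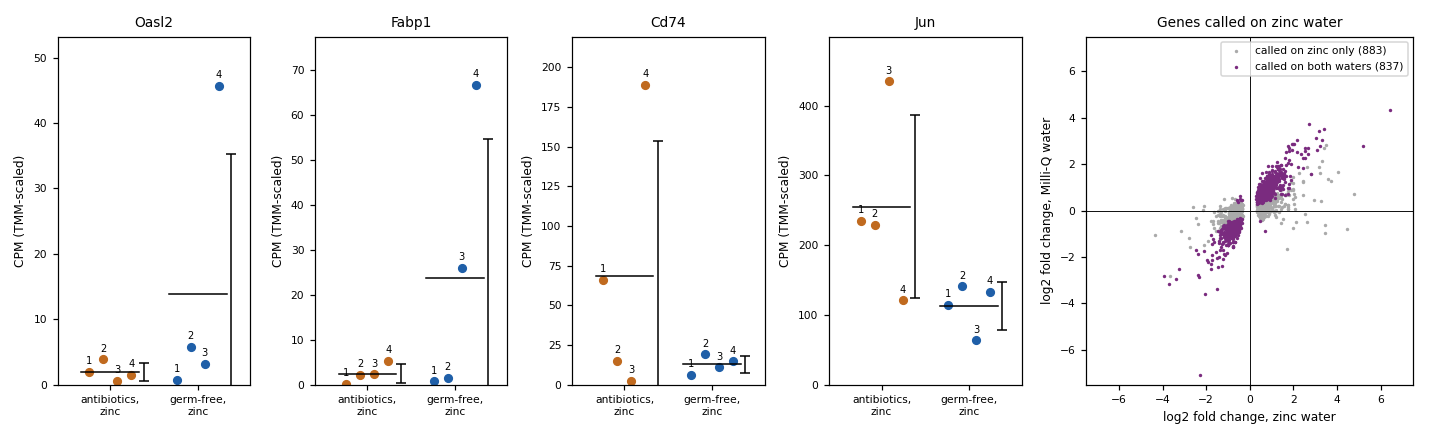
Left, CPM (y axis, linear, from 0) of Oasl2, Fabp1, Cd74 and Jun in each zinc library, with means and SD bars cut at 0: the high values are those of germ-free replicate 4 for Oasl2 and Fabp1 (45.7 and 66.8), antibiotics replicate 4 for Cd74 (189) and antibiotics replicate 3 for Jun (435). Right, log2 fold change on zinc water (x axis) against that on Milli-Q water (y axis) for the 1720 genes called on zinc water, 837 of them called on both.

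Markers of other secretory cell types took smaller shares of counts in germ-free libraries. The typical gene did so too (-0.74 on the log2 scale with library totals), so the shares alone do not show fewer such transcripts. Goblet markers took 1.38% ± 0.239 with antibiotics and 1.04% ± 0.0666 in germ-free cells, enteroendocrine markers 0.0172% ± 0.0062 and 0.00706% ± 0.00179, and tuft markers 0.0257% ± 0.0130 and 0.0105% ± 0.00139. With TMM factors, calls were as follows. Of 9 goblet markers 4 fell and 1 rose, with 1 falling without antibiotics replicate 1 or germ-free replicate 2 or 3. Fcgbp, a mucus protein, was at 912, 1300, 538 and 693 CPM with antibiotics and at 332, 400, 357 and 229 CPM in germ-free cells, with no overlap (-1.39 ± 0.21, adjusted p = 0.000231). Clca1 and Agr2 fell by 1.22 and 0.81 (adjusted p = 0.0285 and 0.0321), each called in 4 of 8 fits without 1 library. Spink4 rose by 0.89 ± 0.17 (adjusted p = 0.0012; 0.10 with library totals). Of 14 enteroendocrine markers 3 fell, none without antibiotics replicate 4 and 1 without germ-free replicate 2. Chgb, a granule protein, fell by 1.41 ± 0.35 (adjusted p = 0.009), Gcg, the glucagon precursor gene, by 1.75 ± 0.48 (adjusted p = 0.0192) and Tac1, a neuropeptide gene, by 1.64 ± 0.46 (adjusted p = 0.0213). None of 9 tuft markers passed. Immune markers were at 0.001235% of counts or less.

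Several other large single changes follow. Sgk1 and, further below, Hsd11b2 belong to the list of glucocorticoid-responsive genes. Cyp2b10, a cytochrome P450 that clears foreign compounds, was at 2.79, 2.98, 2.36 and 2.09 CPM with antibiotics and at 17.4, 8.85, 12.0 and 14.7 CPM in germ-free cells. No libraries overlapped (2.35 ± 0.26, adjusted p = 2.04e-05; 1.59 with library totals), and on Milli-Q water the change was 2.45. Calcoco1, an autophagy receptor, was at 7.80, 5.76, 7.82 and 6.46 CPM with antibiotics and at 26.1, 25.6, 16.3 and 26.0 CPM in germ-free cells (1.76 ± 0.19, adjusted p = 2.04e-05). Agt, the angiotensin precursor, rose by 1.81 ± 0.28 (adjusted p = 0.000231), Fn3k, which repairs glycated proteins, by 1.91 ± 0.29 (adjusted p = 0.000229), Trp53inp1, a p53-induced protein, by 1.79 ± 0.32 (adjusted p = 0.000796) and the kinase Sgk1 by 1.75 ± 0.30 (adjusted p = 0.000601). Lars2, the mitochondrial leucyl-tRNA synthetase, was at 1371, 858, 1332 and 1987 CPM with antibiotics and at 10509, 4062, 4843 and 3218 CPM in germ-free cells (2.03 ± 0.33, adjusted p = 0.00032). Rn18s-rs5 was highest in that same germ-free replicate 1. The log2 fold change of Lars2 was 1.54 without that library and 1.21 with 18S ribosomal RNA as a term, and it passed in both fits. Lars2 and Rn18s-rs5 ranked the germ-free libraries in the same order and had the same lowest and highest antibiotics library. The part of ribosomal RNA reads in the Lars2 counts was not tested.

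After Scd2 the next fall in size by the same rule was that of Hsd11b2, the enzyme that inactivates glucocorticoids. It was at 70.2, 19.8, 27.8 and 22.2 CPM with antibiotics and at 6.97, 11.4, 4.72 and 4.57 CPM in germ-free cells (-2.34 ± 0.59, adjusted p = 0.011). Antibiotics replicate 1 was its highest library, and without it the log2 fold change was -1.75 and the call was lost (adjusted p = 0.0548). Ccn1, a matrix protein of the YAP pathway, fell by 2.09 ± 0.35 (adjusted p = 0.000484). Piezo1, a stretch-activated ion channel, fell by 1.44 ± 0.27 (adjusted p = 0.00115), and Ceacam10, an adhesion molecule, fell by 1.47 ± 0.30 (adjusted p = 0.00217).

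On Milli-Q water 2904 genes (22.2%) were called, or 10340 (79.1%, 78.6% lower) with library totals, from libraries other than the 8. Of the 1720 genes called on zinc water, 539 rose and 290 fell there too, together 48.2% of the zinc calls and 28.5% of the Milli-Q calls. Among the zinc calls 87.7% had the same sign on both waters. The difference between waters was called for 27 genes (0.207%), 9 with a larger (0.0689%) and 18 with a smaller value on zinc water (0.138%), and this count ran from 0 to 362 when 1 library was left out, so it rested on single libraries. It was 0 without antibiotics replicate 1 or germ-free replicate 2 on zinc water, or without antibiotics replicate 4 or germ-free replicate 2 or 3 on Milli-Q water. Dropping replicate 4 of the germ-free zinc group raised it to 296, and dropping replicate 1 of the germ-free Milli-Q group raised it to 362. Scaled by library totals, 3 genes (0.023%) passed. Genes named for it were Ly75, an endocytic receptor, and Btnl4, a butyrophilin-like protein, with larger changes on zinc water, and Nme1, a nucleotide kinase, Zcchc17, a ribosome-linked protein, and Nucb2, a calcium-binding protein, with smaller ones. Ly75 averaged 5.53 and 6.94 CPM on zinc water (antibiotics, then germ-free) and 6.002 and 1.25 CPM on Milli-Q water. Nucb2 averaged 83.1 and 124 CPM on zinc water and 63.1 and 197 CPM on Milli-Q water.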

How the data were processed

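The authors deposited raw gene counts per library. Per the labels' processing notes they used FastQC 0.12.0, STAR 2.7.0a, DESeq2 and the mm39 build. The kit was stranded, and which strand setting the counting used was not found in the labels or methods. Counts were used as deposited, with symbols and GRCm39 coordinates from GENCODE for 54749 of 55414 identifiers. edgeR 4.0.16 (R 4.3.3) fitted all 21 libraries in 6 groups after its default filter on low counts, which left 13070 genes; Benjamini-Hochberg adjusted p below 0.05 was called, and the standard error is the log2 fold change over the root of F. Shares of counts were compared by exact permutation. On simulated counts for the zinc comparison (13070 genes), 93% of 100 genes changed 4-fold and 76% of 100 changed 2-fold were called. Each simulated gene had the same spread between libraries, and no shift of shares between groups was simulated. The real data differ in both, so these rates may not hold for them. Replicate libraries differed far beyond counting noise, so none was merged. The comparison and the 39 gene lists were chosen with earlier results of these data known.

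Genes were named by rule: the 10 largest rises and 10 largest falls among called protein-coding genes of at least 5 CPM whose groups do not overlap; Reg3b, Reg3g, Nos2, Mt1, Mt2, Lyz1, Itln1, Mmp7 and Defa24; for lists described, the 3 members of smallest p and, for most, the 2 most abundant; and 3 genes each way for the difference between waters. Members of a list named without values, and Angptl4, Cpt1a, Creb3l3, Rrm2 and Rn18s-rs5, were chosen after their values were seen. Some genes that the rule names are not reported here. Alternatives were library totals, other size factors, TMM without Defa genes, DESeq2 1.42.0, limma 3.58.1, other filters, fits of only the groups compared, a replicate block, GC and length correction, and leaving out each library; 18S ribosomal RNA as a term and omission of germ-free replicates 1 and 4 were added after seeing the data.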

Additional observations from a re-analysis of the deposited data

Results flagged for a closer look

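In all, 16 values lay far from the other 3 of their group, out of 224 groups of 4 checked; chance gives about 1 in 20. In germ-free libraries these were Calcoco1 in replicate 3 (16.3 CPM, others 25.6 to 26.1), Reg3b in replicate 2 (7.43, others 13.9 to 14.7), Oasl2 in replicate 4 (45.7, others 0.775 to 5.79), Ifi27l2b in replicate 4 (203, others 35.5 to 40.6), Hspd1 in replicate 3 (231.8, others 180.1 to 188.7), Slc5a1 in replicate 1 (58.7, others 74.2 to 76.2), Vil1 in replicate 4 (319.4, others 259.5 to 264.7) and the Defa share in replicate 3 (39.3%, others 41.6 to 42.0%). In antibiotics libraries they were, in replicate 1, Hsd11b2 (70.2 CPM, others 19.8 to 27.8), Itln1 (31900, others 19400 to 20880) and Gbp3 (0.372, others 0); in replicate 3, Hells (46.4, others 27.8 to 30.2) and Hsp90ab1 (1640, others 1118 to 1188); and in replicate 4, Nos2 (2.02, others 0.372 to 0.606), Slc39a3 (13.4, others 11.9 to 12.1) and B2m (191.2, others 158.1 to 162.6).

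The change from antibiotics to germ-free differed between zinc and Milli-Q water by a tested difference in 5 named genes: Ly75 (2.57 ± 0.42 on the log2 scale), Btnl4 (1.34 ± 0.25), Nme1 (-1.08 ± 0.18), Zcchc17 (-1.12 ± 0.20) and Nucb2 (-1.07 ± 0.19), with adjusted p of 0.0233 for Btnl4 and 0.0222 for the others. Each was called in 8 to 10 of 15 fits without 1 library.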

How the results depend on the processing

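The 1720 calls on zinc water became 8649 with library totals, 865 when only the compared groups were fitted, 730 with the replicate block and 694 without germ-free replicates 1 and 4, and ran from 1179 to 1796 without 1 library. Other settings gave 1528 to 2195. The Milli-Q count (2904) was 10340 with library totals, 1299 with 18S ribosomal RNA as a term and 1566 (without germ-free Milli-Q replicate 2) to 2770 without 1 library. The difference between waters (27 calls) gave 3 with library totals, 323 with no filter, 76 with GC and length correction, 2 with only the compared groups, 1 with the replicate block, 767 with limma-voom, 323 with DESeq2 and 0 to 362 without 1 library. Replicate numbers were not treated as pairs: deviations of same-numbered libraries correlated at 0.101, 0.0202, 0.0113 and -0.0443. The Defa share difference (13.6 percentage points) ran from 12.8 to 14.3 and the mitochondrial one from -1.82 to -1.22 without 1 library, where an exact permutation test of 3 against 4 cannot go below p = 0.0571.

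With library totals the direction turned for Mt1 (-0.545), Slc30a2 (-0.237), Slc39a13 (-0.0928), Slc39a3 (-0.348), Slc7a5 (-0.0331), Atf4 (-0.578), B2m (-0.298), H2-T23 (-0.0092), H2-Q2 (-0.145), H2-K1 (-0.261), Irf1 (-0.571), Bhlhe40 (-0.464), Ucp2 (-0.495), Hadh (-0.478), Vil1 (-0.428), Ly75 (-0.426), Btnl4 (-0.428) and Nucb2 (-0.193), beside a shift of -0.74 over all genes. Mt1 also turned with GC and length correction (-0.0614) and limma-voom (-0.17), Mt2 with 18S ribosomal RNA as a term (0.037) and Atf4 without germ-free replicates 1 and 4 (-0.0298). Without 1 library Mt1 ran from -0.0907 to 0.324, Mt2 from -0.368 to 0.0491, Nos2 from -1.25 to 0.159 and Atf4 from -0.000231 to 0.257, none of them called. The causes were not tested. Of 79 named genes called, 54 stayed called in each fit without 1 library. Depth limits genes of a few CPM such as Pdk4 and Gbp3.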

Other observations

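Proteasome subunits degrade marked proteins, and mitochondrial ribosomal proteins serve translation in mitochondria. Of 37 proteasome subunits 6 fell and none rose (median log2 fold change -0.21), and of 77 mitochondrial ribosomal proteins 10 fell and none rose (median -0.17), with 3 to 7 and 4 to 17 called lower when 1 library was left out, 4 of the latter without antibiotics replicate 4 or germ-free replicate 1 and 17 without antibiotics replicate 2. On Milli-Q water 11 and 15 of the same lists rose and none fell. Over all 13070 genes 7.07% rose and 6.09% fell on zinc water, and 12.5% rose and 9.7% fell on Milli-Q water. Transfer RNA synthetases, which charge transfer RNAs with amino acids, had 0 of 20 called on zinc water and 14 higher on Milli-Q water. Cytosolic ribosomal proteins had 1 of 77 higher on zinc water (0 in the fits without 1 library, or 2 without antibiotics replicate 4) and 25 of 77 higher on Milli-Q water, and their summed share of counts was 2.87% ± 0.425 in germ-free zinc cells and 4.55% ± 0.727 with antibiotics, beside a shift of -0.74 on the log2 scale for the typical gene with library totals. Whether these lists differ between waters was tested gene by gene only, where 27 of 13070 genes were called, 2 of them tRNA synthetases with smaller changes on zinc water (Aars1 and Gars1, named after their values were seen).

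The list counts that follow stand beside 7.07% of all genes higher and 6.09% lower on zinc water. Of 13 glucocorticoid-responsive genes 5 rose (Pdk4, Sgk1, Tsc22d3, Klf9 and Zbtb16) and 2 fell (Hsd11b2 and Dusp1), and 3 rose without germ-free replicate 2. Apolipoprotein and lipid absorption genes had 6 of 17 higher, with none left without germ-free replicate 4 and 2 without antibiotics replicate 1, 2 or 3. Nuclear oxidative phosphorylation genes had 2 of 80 higher and 2 lower, Nrf2 targets 1 of 20 higher and 2 lower, NF-kB targets 1 of 24 each way, glycosylation genes 2 of 19 higher, NADPH oxidase genes 1 of 10 lower, and bile acid, aryl hydrocarbon receptor and sex-linked genes none of 10, 5 and 5. Mitochondrially encoded genes took 3.10% ± 0.850 of counts with antibiotics and 1.696% ± 0.692 in germ-free cells (exact permutation p = 0.0571). This share rests mainly on 7 of 13 such genes, since the other 6 had no counts or too few to be tested. The strain-linked Wdfy1 rose by 1.21 ± 0.28 (adjusted p = 0.00594), a call lost with library totals (0.42), with the replicate block and without germ-free replicates 1 and 4, and Nnt, part of which is deleted in C57BL/6J, was at 0.741 CPM or less in all 8 libraries.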
